A study of Mus musculus with 32 samples.

Results

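The 32 genes described here encode enzymes and regulators of cholesterol and fatty acid synthesis. They were chosen by name, from a fixed list of sterol and fatty acid genes, out of 31053 genes in the count tables, and all 32 were among the 15280 genes with enough reads to be tested. By role, 7 belong to the mevalonate steps, 11 to the steps from squalene to cholesterol, 6 are regulators or a sterol carrier, and 8 make or modify fatty acids. Gene positions are given in GRCm38 (mm10) coordinates.

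Cholesterol is built from acetyl-CoA. Acetyl-CoA is condensed and reduced to mevalonate, mevalonate is turned into isoprenoid units, and these are joined to squalene, which is closed into a ring and trimmed to cholesterol. Fatty acids are built from the same acetyl-CoA and are then lengthened and desaturated. Both routes feed new membranes in dividing cells. Many of their genes are targets of the transcription factors SREBP-1 and SREBP-2, the products of Srebf1 and Srebf2. SCAP escorts these factors to the Golgi, where they are cut and released, and the INSIG proteins hold them in the endoplasmic reticulum when sterols are plentiful.

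RNA came from C1, a mouse embryonic stem cell (ESC) line that lacks endogenous β-catenin and carries, by lentiviral infection and drug selection, an inducible fusion of a destabilizing domain, mCherry and a constitutively active β-catenin mutant. In these cells doxycycline (dox) switches on the fusion gene and trimethoprim (TMP) protects its protein from degradation. All groups first had 48 h of 10 μM TMP. The day 0 groups were C1 (TMP without dox) and, after 100 ng/mL dox with TMP, the cells sorted for a middle (C1M) or a high (C1H) mCherry signal. The day 4 groups were differentiated in a serum-free medium without LIF. C1T came from C1 and kept TMP without dox. C1MV and C1HV came from the middle and the high cells and had DMSO with neither inducer. C1MDT and C1HDT came from the same cells with both inducers kept on. Each group had 4 libraries, labelled as biological replicates. The line is a single modified line, and C1 and C1T never received dox, so effects of dox and of the fusion protein cannot be told apart. After the shared 48 h, TMP was withdrawn only in C1MV and C1HV, which had DMSO instead. Against groups that had TMP, its effect and any of DMSO cannot be told apart from those of dox and the fusion protein. C1 cells were sorted as living, DAPI-negative cells and the others by mCherry, so the kind of sort cannot be told apart either in comparisons with C1 or C1T, while inducers kept and withdrawn were compared in cells of the same sorted fraction. The labels describe serum with LIF before differentiation, whereas the study's methods give a serum-free medium with LIF and inhibitors of GSK3 and MEK for these libraries.

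Reads were taken from the 3′ ends of transcripts, and each library had from 1366951 to 3648787 reads on genes. Levels are given as CPM, counts scaled to a common library total by the effective library size. A floor of 3 reads, scaled by the unadjusted total of reads on genes, came to between 0.822 and 2.19 CPM per library and covers counting error only. Adjusted p-values are from edgeR's quasi-likelihood test with Benjamini-Hochberg adjustment over all genes tested, a gene passed where this was under 0.05, and they measure the spread between these libraries. Reads of Ctnnb1, the β-catenin gene, came to 5.19 to 11.0 CPM in C1, 9.45 to 17.7 in C1M and 34.9 to 48.7 in C1H at day 0. At day 4 they came to 7.18 to 12.4 CPM in C1T, 6.90 to 12.1 in C1MV and 4.13 to 8.599 in C1HV, against 25.4 to 34.05 in C1MDT and 28.2 to 36.3 in C1HDT. C1M overlapped with C1, while the groups with inducers at day 4 did not overlap with those without. The summed level of 10 naive pluripotency markers was 5812 to 6002 CPM in C1, 499.8 to 662 in C1T, 903 to 997 in C1HV and 1009.7 to 1227 in C1MV. With inducers it was 349 to 503 CPM in C1HDT and 371 to 462 in C1MDT. The naive sum was also lower at day 0 after induction, at 4346 to 4481 CPM in C1M and 4435 to 4662 in C1H, but its members did not all go one way. In C1M 2 of the 10 were called higher and 6 lower, where 14.3% and 12% of all genes tested were. In C1H 1 was called higher and 4 lower, where 13.8% and 12.1% were. The 6 primed epiblast markers summed to 94.8 to 134 CPM in C1, 127 to 152 in C1M, 105 to 128 in C1H and 1373 to 1655 in C1T. Without inducers at day 4 they summed to 735 to 789 CPM in C1HV and 671 to 766 in C1MV, and with them to 1097 to 1221 in C1HDT and 1076 to 1221 in C1MDT. The share of uniquely aligned reads that lay on no gene moved with the groups as well. It was 19.5% to 20.9% in C1, 19.7% to 21.2% in C1M, 22.1% to 23.1% in C1H and 14.4% to 14.8% in C1T. It was 12.5% to 14.5% in C1HV and 12.5% to 15.6% in C1MV, above the 10.1% to 11.5% of C1HDT and the 10.8% to 11.2% of C1MDT. The part of these markers and of this share in the results below was not tested. In these bulk samples fewer cells of a type and less RNA per cell cannot be told apart.

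Transcripts that liver makes in quantity, such as that of albumin, were present in every library. A list of 13 of them, chosen after the values were seen, summed to 2263 to 2983 CPM in C1, 1459 to 1909 in C1M, 1283 to 2032 in C1H and 2342 to 4360.1 in C1T. The sums were 2058 to 2870.5 CPM in C1HV and 2360.4 to 2896 in C1MV, against 1717 to 2347 in C1HDT and 1492 to 2126 in C1MDT. Liver also expresses sterol and fatty acid genes, so the movement of this list is given with the comparisons below, with the count of genes called when its level was added to the fit as a covariate. Its median log2 fold change was 0.04 for C1H against C1M, -0.08 for C1HV against C1MV, 0.08 for C1HDT against C1MDT, 0.15 for the interaction of inducers and fraction, and 0.35 and -0.09 for the interactions of day with C1MV and C1HDT against C1T. Where this fit is not mentioned it left the count of called genes within 1 of the value given. As the level of the list moved with the groups, this fit cannot separate the list from the groups. The part of liver transcripts in the results below was not tested.

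The sum of the 32 genes was lowest in the groups without inducers at day 4. It was 5517 to 6151 CPM in C1, 4032 to 4213 in C1M and 3773 to 4063 in C1H. At day 4 it was 4738 to 5080.4 CPM in C1T, 2890.2 to 3300.0 in C1HV and 3024 to 3333 in C1MV, against 5648 to 6224 in C1HDT and 5800.5 to 6321 in C1MDT. The map of all genes by library shows these blocks, and the plot of changes by comparison shows each gene's change.

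**Figure D1:**
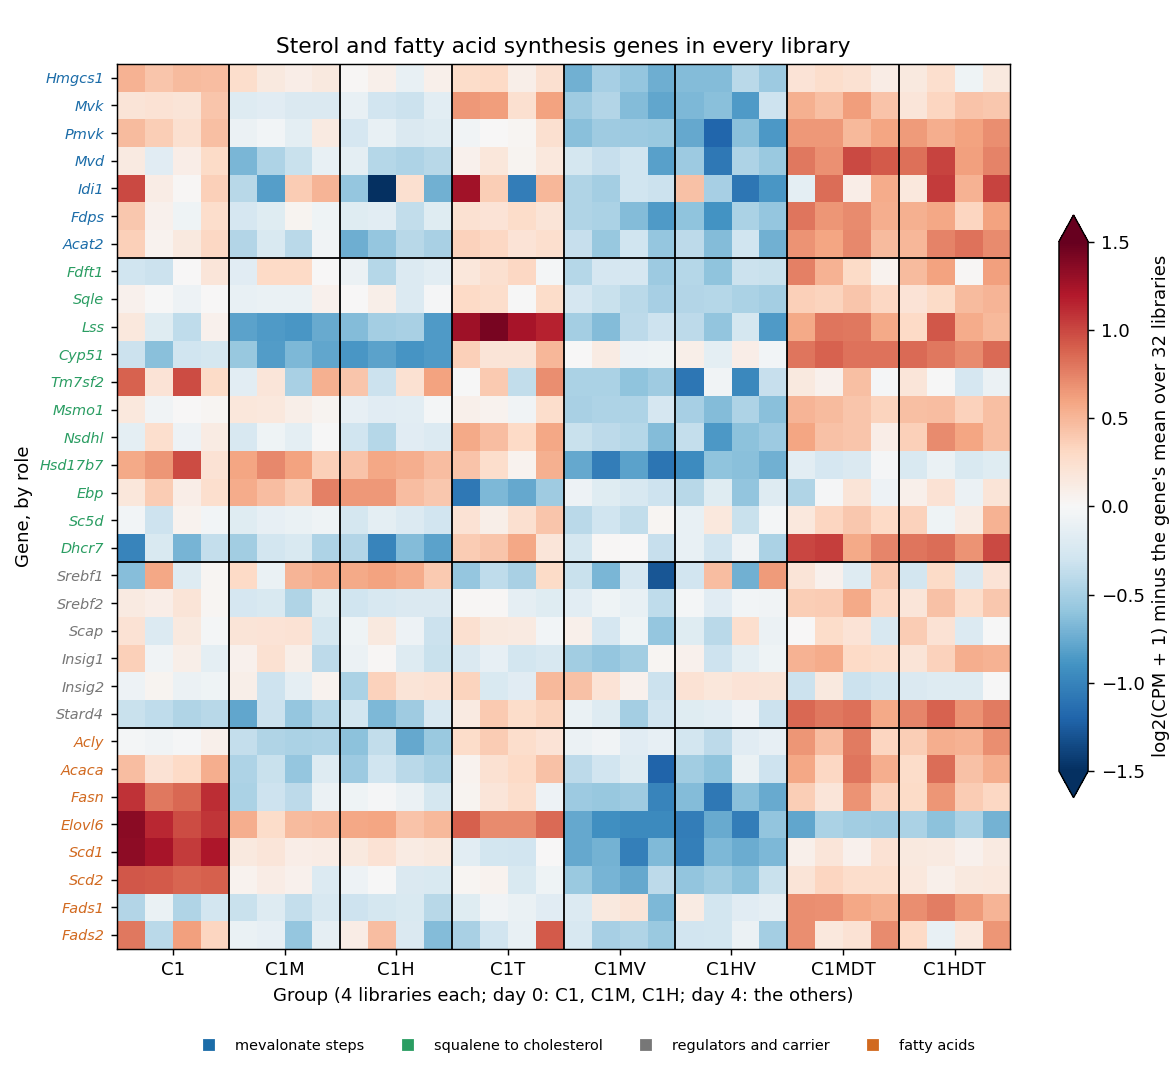
Level of each of the 32 genes (rows, grouped and coloured by role) in each of the 32 libraries (columns, 4 per group), as log2(CPM + 1) minus the gene's own mean over all libraries. C1MV and C1HV are the bluest blocks, C1MDT and C1HDT are red for most genes, and Elovl6, Scd1, Scd2 and Fasn are reddest in C1.

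The comparison of inducers kept with inducers withdrawn asked whether cells of the same sorted fraction differed at day 4. 26 of the 32 genes were higher in C1MDT than in C1MV, where 6.64% of all genes tested were called higher, and 0 were lower, where 5.98% were called lower. In the high fraction 27 were higher in C1HDT than in C1HV, where 9.06% of all genes tested were called higher, and 0 were lower, where 6.89% were. DESeq2 also called 0 lower in each, and at an unadjusted p under 0.05 edgeR had 0 lower in the middle and 1, Insig2, in the high fraction. These 2 comparisons share no library. Together, 25 of the 32 genes were higher in both, which was the case for 4.37% of all genes tested. The median log2 fold change of the 32 genes was 0.83 and 0.82, against -0.02 and 0.00 for all genes tested. By role, 6 and 7 of 7 mevalonate genes, 9 and 10 of 11 squalene to cholesterol genes, 3 and 3 of 6 regulators, and 8 and 7 of 8 fatty acid genes rose in the middle and the high fraction. The liver list moved the other way, with a median log2 fold change of -0.56 and -0.40. With its level as a covariate 27 and 26 of the 32 genes were called, all higher.

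Members of the list that did not pass in either fraction were Srebf1, Scap, Insig2 and Tm7sf2. Their log2 fold changes in the middle and high fraction were 0.73 ± 0.29 and -0.06 ± 0.29 (SE) for Srebf1, 0.25 ± 0.17 and 0.19 ± 0.18 for Scap, -0.34 ± 0.18 and -0.36 ± 0.18 for Insig2, and 0.81 ± 0.30 and 0.64 ± 0.33 for the sterol reductase gene Tm7sf2. The desaturase gene Fads2 passed only in the middle fraction, and Ebp and Idi1 only in the high fraction, which does not show that the fractions differed. A test of that difference, the interaction of inducers and fraction, called 0 of the 32 genes with edgeR and 0 with DESeq2, while 2 had an unadjusted p under 0.05. Over all genes tested edgeR called 0% in that test. Across the 32 genes the log2 fold changes of the 2 fractions had a Pearson r of 0.84, against 0.29 over all 15280 genes tested. Each is a correlation across genes, which are not independent replicates, in libraries scaled together. The 15280 genes include genes with few reads, whose counting error is larger, so the 2 values of r are not like for like. The largest difference between the fractions was 0.79 among the 32 genes and 6.92 among all genes tested.

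**Figure D2:**
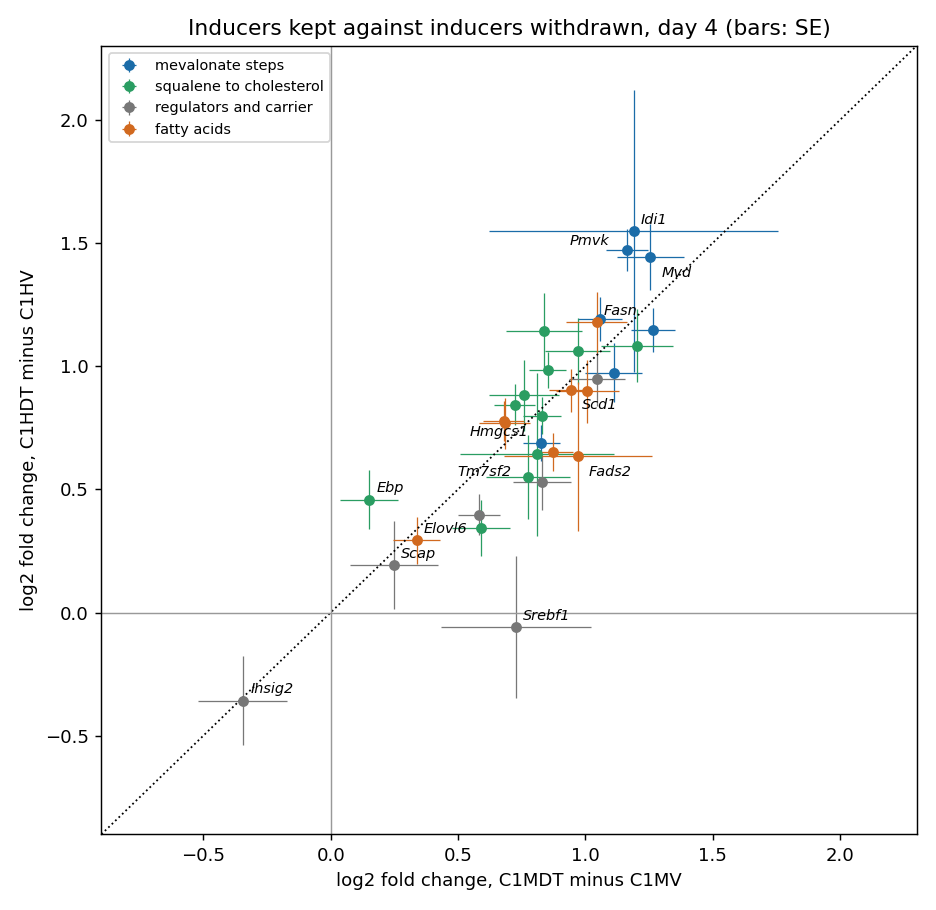
Log2 fold change of each gene with inducers kept against withdrawn, in the middle fraction (horizontal axis) and the high fraction (vertical axis), with bars of 1 SE and colours by role. Most genes lie near the dotted line of equal change between 0.29 and 1.47, Insig2 lies below 0 on both axes, and Idi1, which has few reads, has the widest bars.

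Promoters of 25 of the 32 genes were in the RefSeq table used (GRCm38.p6). Not matched were Fdps, Fdft1, Sqle, Stard4, Scd1, Scd2 and Fads1. The windows searched ran from 250 bases before to 50 bases after each start, on both strands, for the core of a sterol regulatory element (TCACNCCAC), for the NF-Y motif CCAAT and for the Sp1 motif GGGCGG. NF-Y and Sp1 are known to act beside SREBP at its target genes. The element core was in 1 of the 25, Hmgcs1, and in 1.51% of tested genes with a promoter in the table. CCAAT was in 20 of 25 and in 43% of tested genes, and GGGCGG in 21 of 25 and in 66.2%. Over all 32851 promoters in the table the shares were 1.24%, 37.4% and 35.7%. A match is a description of the letters, and a lack of one says only that these letters are not in the window.

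The 250 bases before the start are printed for 4 genes that rose with the inducers in both fractions, 1 for an early and 1 for a late mevalonate step, 1 for fatty acid synthesis and 1 for a regulator. The windows are chr13:119690101-119690350 on the plus strand for Hmgcs1, chr8:122443423-122443672 on the minus strand for Mvd, chr11:120824548-120824797 on the minus strand for Fasn and chr5:28071162-28071411 on the plus strand for Insig1, each read 5′ to 3′ along the gene. Capitals mark the motifs, so that ATTGG is CCAAT and CCGCCC is GGGCGG on the other strand, and TCACCCCAC in Hmgcs1 is the sterol element core. In Fasn the last CCAAT and ATTGG overlap.
Hmgcs1: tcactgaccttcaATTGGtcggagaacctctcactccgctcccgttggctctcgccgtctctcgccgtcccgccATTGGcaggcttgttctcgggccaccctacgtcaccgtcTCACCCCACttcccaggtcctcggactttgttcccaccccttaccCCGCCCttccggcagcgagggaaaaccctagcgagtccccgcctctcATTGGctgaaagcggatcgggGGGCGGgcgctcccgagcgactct
Mvd: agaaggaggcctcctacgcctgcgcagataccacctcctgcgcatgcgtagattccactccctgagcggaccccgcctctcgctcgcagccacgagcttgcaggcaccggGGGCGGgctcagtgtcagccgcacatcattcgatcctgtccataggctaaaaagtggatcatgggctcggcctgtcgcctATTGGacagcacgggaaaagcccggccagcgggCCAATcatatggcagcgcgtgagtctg
Fasn: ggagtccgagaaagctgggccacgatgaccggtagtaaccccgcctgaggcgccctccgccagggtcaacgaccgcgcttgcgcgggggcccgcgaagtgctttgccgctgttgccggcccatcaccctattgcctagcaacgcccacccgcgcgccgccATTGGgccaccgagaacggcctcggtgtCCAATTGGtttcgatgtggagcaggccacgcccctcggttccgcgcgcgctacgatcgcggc
Insig1: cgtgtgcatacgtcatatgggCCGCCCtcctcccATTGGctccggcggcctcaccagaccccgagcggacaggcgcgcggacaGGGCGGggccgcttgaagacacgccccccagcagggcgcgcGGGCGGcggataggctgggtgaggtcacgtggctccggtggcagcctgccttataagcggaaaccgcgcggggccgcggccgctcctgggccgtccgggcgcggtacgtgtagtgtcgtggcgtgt
In these windows Hmgcs1 holds the 3 motifs, Mvd and Insig1 hold CCAAT and GGGCGG, and Fasn holds CCAAT only.

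Of the mevalonate genes, Hmgcs1, Pmvk and Fdps were lowest at day 4 without inducers. Hmgcs1 (ENSMUSG00000093930, chr13:119690379-119708260, plus strand) encodes the synthase that makes HMG-CoA, from which mevalonate is formed. It measured 596, 550.0, 576 and 572 CPM in C1, 496, 458, 443 and 459 CPM in C1M, and 418, 436, 382 and 436 CPM in C1H. At day 4 it measured 501, 508, 440.2 and 488 CPM in C1T, 251, 293, 276 and 247 CPM in C1MV, and 262, 263, 311 and 283 CPM in C1HV, with 477, 495, 483 and 445 CPM in C1MDT and 459, 492, 396 and 459 CPM in C1HDT. All libraries of C1MV and C1HV were below all libraries of the other 6 groups. With inducers kept, Hmgcs1 was 1.77-fold and 1.61-fold higher, a log2 fold change of 0.83 ± 0.07 (SE, adjusted p = 4.55e-19) in the middle and 0.69 ± 0.07 (SE, adjusted p = 4.87e-14) in the high fraction. Against C1T it was -0.85 ± 0.07 (SE, adjusted p = 1.07e-20) in C1MV, whereas C1MDT and C1HDT differed from C1T by -0.03 ± 0.07 and -0.10 ± 0.07 and did not pass.

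Pmvk (ENSMUSG00000027952, chr3:89454541-89469013, plus strand), the phosphomevalonate kinase gene, gave the smallest p of the 32 genes with inducers in the high fraction. It measured 263, 243, 223 and 259 CPM in C1, 178, 183, 170.4 and 208 CPM in C1M, and 159, 174, 162 and 164 CPM in C1H. The day 4 values were 182, 189, 192 and 222 CPM in C1T, 122, 130.4, 129 and 128 CPM in C1MV, and 110.0, 81.9, 122 and 103 CPM in C1HV, with 296, 297, 265 and 285 CPM in C1MDT and 295, 277, 287 and 306 CPM in C1HDT. The groups with and without inducers were far apart, and C1T lay between them. The log2 fold change with inducers was 1.16 ± 0.08 (SE, adjusted p = 1.21e-25) and 1.47 ± 0.09 (SE, adjusted p = 1.56e-32), or 2.24-fold and 2.77-fold. Fdps (ENSMUSG00000059743, chr3:89093588-89101959, minus strand), which encodes farnesyl diphosphate synthase, gave the smallest p in the middle fraction. It measured 251, 198, 180.0 and 226 CPM in C1, 158, 166, 195 and 181 CPM in C1M, and 167, 169, 146 and 167 CPM in C1H. Its day 4 values were 221, 218, 229 and 216 CPM in C1T, 138, 136, 119.9 and 104 CPM in C1MV, and 123, 101, 135 and 125 CPM in C1HV, with 329.7, 299, 308 and 275 CPM in C1MDT and 274, 283, 236 and 287 CPM in C1HDT. All 8 libraries with inducers lay above all 12 other day 4 libraries. Its log2 fold change was 1.27 ± 0.09 (SE, adjusted p = 5.49e-27) and 1.15 ± 0.09 (SE, adjusted p = 1.2e-22).

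The other mevalonate genes with enough reads moved likewise. Mvd, which encodes the decarboxylase of mevalonate diphosphate, rose by 1.26 ± 0.13 and 1.44 ± 0.13 on the log2 scale with inducers, from means of 297 and 254 CPM to 715 and 692. The mevalonate kinase gene Mvk rose by 1.11 ± 0.11 and 0.97 ± 0.12, and Acat2, a cytosolic thiolase that joins acetyl-CoA units, by 1.06 ± 0.09 and 1.19 ± 0.09. Idi1, the isopentenyl diphosphate isomerase gene, had few reads, with 3 or fewer in some libraries of most groups and at most 6.23 CPM. Its change with inducers in the high fraction, 1.55 ± 0.57 (SE, adjusted p = 0.0488), lost its call in 11 of the alternatives, among them the fit with other size factors.

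Most genes from squalene to cholesterol also rose with inducers, except Tm7sf2 in both fractions and Ebp in the middle fraction, which did not pass. The genes differed among themselves in C1T. Sqle (ENSMUSG00000022351, chr15:59315077-59331192, plus strand) encodes squalene epoxidase, which adds the oxygen to squalene. It measured 198, 188, 180.0 and 190.0 CPM in C1, 175, 176, 177 and 197 CPM in C1M, and 190.3, 202, 163 and 187 CPM in C1H, so that the day 0 groups overlapped. On day 4 the levels were 232, 226, 189 and 228 CPM in C1T, 159, 150.3, 142 and 133 CPM in C1MV, and 139, 139.9, 136 and 132 CPM in C1HV, with 243, 238, 253 and 236 CPM in C1MDT and 219, 231, 262 and 269.9 CPM in C1HDT. C1MV and C1HV lay below all other groups. The log2 fold change with inducers was 0.72 ± 0.08 (SE, adjusted p = 6.67e-13) and 0.84 ± 0.08 (SE, adjusted p = 8.56e-16).

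Lss (ENSMUSG00000033105, chr10:76531588-76557138, plus strand), which encodes lanosterol synthase, the enzyme that closes the sterol ring, was highest in C1T. It measured 39.01, 30.6, 26.5 and 36.4 CPM in C1, 19.5, 18.8, 18.6 and 20.2 CPM in C1M, and 21.8, 24.0, 24.5 and 18.9 CPM in C1H. By day 4 its level was 85.4, 95.3, 83.4 and 78.9 CPM in C1T, 24.2, 21.7, 26.2 and 27.8 CPM in C1MV, and 26.3, 22.7, 28.8 and 18.9 CPM in C1HV, with 51.9, 61.5, 61.1 and 51.9 CPM in C1MDT and 43.2, 67.3, 51.5 and 49.01 CPM in C1HDT. All C1T libraries were above all libraries of the other 7 groups. C1T exceeded C1 by 1.37 ± 0.13 (SE, adjusted p = 1.23e-17) on the log2 scale, or 2.58-fold. Compared with C1T, C1MV and C1HV fell by 1.80 and 1.81 (log2), and C1MDT and C1HDT fell by 0.60 and 0.72, and these changes passed the test.

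Cyp51 (ENSMUSG00000001467, chr5:4081145-4104746, minus strand) encodes the lanosterol demethylase. It measured 209, 169, 212 and 218 CPM in C1, 176, 146, 164 and 152 CPM in C1M, and 143, 149, 141 and 145 CPM in C1H. In the day 4 groups it had 335, 300.1, 299 and 369 CPM in C1T, 264, 284, 248.8 and 249.6 CPM in C1MV, and 278, 237, 280.3 and 254 CPM in C1HV, with 457, 485, 460.2 and 461 CPM in C1MDT and 471, 455, 428 and 473 CPM in C1HDT. Here C1MV and C1HV lay above the day 0 groups, and C1MDT and C1HDT lay above every other group. C1T was 0.68 ± 0.08 (SE, adjusted p = 8.5e-14) above C1 on the log2 scale, and with inducers kept the gene was higher by 0.83 ± 0.07 (SE, adjusted p = 2.08e-18) and 0.80 ± 0.08 (SE, adjusted p = 7.08e-17). Cyp51 overlaps Akap9 on the opposite strand, which had a median of 272 reads per library, and the strand setting of the counting was not given in the sources used here, so the 2 genes' reads may not be separable.

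Msmo1 (ENSMUSG00000031604, chr8:64718139-64733792, minus strand), the methylsterol monooxygenase gene, measured 398, 345, 360.0 and 365 CPM in C1, 403, 398, 381 and 367 CPM in C1M, and 328, 317, 319.7 and 351 CPM in C1H. After 4 days the values were 377, 372, 345 and 431 CPM in C1T, 255, 259, 259.7 and 301 CPM in C1MV, and 254, 227, 260.1 and 231 CPM in C1HV, with 509.6, 497, 477 and 449.8 CPM in C1MDT and 489, 494, 456 and 490.4 CPM in C1HDT. All libraries with inducers were above all others. Its log2 fold change was 0.85 ± 0.07 (SE, adjusted p = 6.04e-20) and 0.98 ± 0.07 (SE, adjusted p = 1.51e-23). It was also the gene nearest to a difference between the sorted fractions at day 0, at -0.24 ± 0.07 (SE, adjusted p = 0.056) for C1H against C1M.

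Ebp (ENSMUSG00000031168, chrX:8185329-8193512, minus strand), which encodes a sterol isomerase, was the only 1 of the 32 genes called higher in C1M and C1H against C1 and in C1MV and C1HV against C1T. It measured 74.7, 87.1, 71.1 and 79.4 CPM in C1, 98.4, 91.8, 86.0 and 113 CPM in C1M, and 105, 105, 92.3 and 88.7 CPM in C1H. At day 4 it measured 31.2, 41.2, 38.6 and 45.7 CPM in C1T, 63.3, 58.5, 55.9 and 53.5 CPM in C1MV, and 49.6, 58.6, 43.9 and 57.9 CPM in C1HV, with 48.4, 65.6, 76.2 and 62.9 CPM in C1MDT and 70.0, 77.3, 62.4 and 75.9 CPM in C1HDT. C1T had the lowest values, which overlapped with those of C1HV and lay below those of C1. Its log2 fold change was -1.001 ± 0.13 (SE, adjusted p = 4.08e-12) for C1T against C1, 0.58 ± 0.13 (SE, adjusted p = 0.000119) for C1MV against C1T and 0.88 ± 0.12 (SE, adjusted p = 1.17e-09) for C1HDT against C1T. Against C1, C1M and C1H were higher by 0.31 ± 0.11 and 0.33 ± 0.11, calls that were lost without C1 replicate 1 or 3, without replicate 1 of either sorted group, without C1M replicate 4 or C1H replicate 2, and with the liver covariate.

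The remaining genes of these steps are Fdft1 (squalene synthase), Nsdhl, Hsd17b7 and Sc5d (sterol dehydrogenase, reductase and desaturase), Dhcr7 (the reductase of a last step) and Tm7sf2. With inducers Fdft1 rose by 0.76 ± 0.14 and 0.88 ± 0.14, Nsdhl by 0.84 ± 0.15 and 1.14 ± 0.16, Hsd17b7 by 0.77 ± 0.17 and 0.55 ± 0.17, Sc5d by 0.59 ± 0.11 and 0.34 ± 0.11 and Dhcr7 by 0.97 ± 0.13 and 1.06 ± 0.13 on the log2 scale. In the high fraction the call of Sc5d was lost without C1HV replicate 1 or 3 or C1HDT replicate 1 or 4, with library size scaling and in a fit of only those groups. Dhcr7 rose by 0.99 ± 0.15 in C1T against C1. Hsd17b7 was lower at day 4 with or without inducers, with changes of -1.53 and -1.26 (log2) in C1MV and C1HV and of -0.76 and -0.71 in C1MDT and C1HDT against their own day 0 fraction. Fdft1 overlaps Ctsb on the opposite strand, with a median of 272.5 reads for Ctsb, and Tm7sf2 overlaps Vps51 on the same strand, so their values are uncertain.

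Among the regulators the change lay in Srebf2, Insig1 and Stard4. Srebf2 (ENSMUSG00000022463, chr15:82147181-82205379, plus strand), the gene of SREBP-2, measured 171, 167, 178 and 159 CPM in C1, 131, 133, 114 and 137 CPM in C1M, and 127, 132, 134 and 134 CPM in C1H. The day 4 values were 158, 158, 142 and 138 CPM in C1T, 139, 148, 145 and 119 CPM in C1MV, and 152, 138, 151 and 150.2 CPM in C1HV, with 202, 203, 232 and 194 CPM in C1MDT and 177, 211, 187 and 206 CPM in C1HDT. The groups with inducers lay above all other day 4 libraries. Its log2 fold change with inducers was 0.58 ± 0.08 (SE, adjusted p = 1e-08) and 0.40 ± 0.08 (SE, adjusted p = 0.000145). C1MV and C1HV differed from C1T by -0.10 ± 0.09 and -0.01 ± 0.09, which did not pass.

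Srebf1 (ENSMUSG00000020538, chr11:60199089-60222581, minus strand), the gene of SREBP-1, had few reads. It measured 5.03, 13.0, 7.26 and 8.61 CPM in C1, 10.6, 7.80, 12.4 and 12.8 CPM in C1M, and 12.9, 13.2, 12.8 and 11.3 CPM in C1H. On day 4 the levels were 5.28, 6.24, 5.72 and 10.4 CPM in C1T, 6.45, 4.87, 6.90 and 2.85 CPM in C1MV, and 6.71, 11.9, 4.73 and 13.7 CPM in C1HV, with 9.80, 8.84, 7.26 and 11.3 CPM in C1MDT and 6.798, 10.5, 7.12 and 9.87 CPM in C1HDT. C1MDT lay above C1MV without overlap, and C1HDT overlapped with C1HV. Its change with inducers was 0.73 ± 0.29 (SE, adjusted p = 0.0892) in the middle and -0.06 ± 0.29 (SE, adjusted p = 0.927) in the high fraction. Intervals of 2 SE around these values ran from 0.14 to 1.32 and -0.63 to 0.52 before adjustment. Srebf1 overlaps Rai1 on the opposite strand, which had a median of 20.5 reads.

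Insig1 (ENSMUSG00000045294, chr5:28071363-28078662, plus strand), which encodes an endoplasmic reticulum anchor of the SCAP complex, measured 107, 80.9, 88.7 and 75.6 CPM in C1, 87.8, 98.6, 89.3 and 63.5 CPM in C1M, and 78.7, 85.0, 72.9 and 66.4 CPM in C1H. By day 4 its level was 71.9, 77.0, 69.1 and 70.5 CPM in C1T, 58.0, 55.8, 58.1 and 85.6 CPM in C1MV, and 87.3, 67.1, 75.2 and 80.0 CPM in C1HV, with 120.5, 123, 103 and 101 CPM in C1MDT and 96.2, 107, 123 and 121 CPM in C1HDT. The groups with inducers lay above all C1T, C1MV and C1HV libraries. Its log2 fold change with inducers was 0.83 ± 0.11 (SE, adjusted p = 3.98e-09) and 0.53 ± 0.11 (SE, adjusted p = 0.00016), and 0.62 ± 0.11 (SE, adjusted p = 1.98e-06) for C1MDT against C1T. Insig2, its paralog, changed by -0.34 ± 0.18 and -0.36 ± 0.18 and did not pass. Scap, which encodes the escort, had a mean between 20.0 and 25.04 CPM in the 8 groups and did not pass in any comparison made here. Stard4, which encodes a carrier of sterols between membranes, rose by 1.04 ± 0.11 and 0.95 ± 0.11 with inducers and by 0.69 ± 0.12 in C1T against C1.

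Several fatty acid genes were highest in C1. Fasn (ENSMUSG00000025153, chr11:120805846-120824547, minus strand) encodes fatty acid synthase. It measured 887, 727, 759 and 902 CPM in C1, 300.4, 338, 320.3 and 394 CPM in C1M, and 399, 415, 396 and 348 CPM in C1H. In the day 4 groups it had 429.7, 477, 502 and 397 CPM in C1T, 288, 281, 288 and 210.3 CPM in C1MV, and 267, 199, 272 and 248 CPM in C1HV, with 544, 475, 669 and 532 CPM in C1MDT and 512, 663, 545 and 522 CPM in C1HDT. C1 was above every other library, and C1MV and C1HV were below all libraries of the other groups. The log2 fold change of C1M and C1H against C1 was -1.28 ± 0.12 (SE, adjusted p = 2.04e-09) and -1.07 ± 0.12 (SE, adjusted p = 4.31e-08), that is 2.43-fold and 2.10-fold lower. With inducers at day 4 it was 1.04 ± 0.12 (SE, adjusted p = 3.13e-07) and 1.18 ± 0.12 (SE, adjusted p = 4.68e-08).

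Scd1 and Scd2 encode desaturases that put a double bond into saturated fatty acids, and the counts hold uniquely aligned reads, so reads that fit both genes were not counted. Scd1 (ENSMUSG00000037071, chr19:44394455-44407879, minus strand) measured 496, 459, 404 and 451 CPM in C1, 215, 221, 208 and 210.0 CPM in C1M, and 216, 226, 213 and 215 CPM in C1H. After 4 days the values were 174, 160.2, 159.6 and 195 CPM in C1T, 114, 118, 95.2 and 123 CPM in C1MV, and 95.02, 122, 116 and 122 CPM in C1HV, with 205, 221, 205 and 227 CPM in C1MDT and 217, 213, 204 and 214 CPM in C1HDT. C1 was far above the others. The log2 fold change was -1.08 ± 0.08 (SE, adjusted p = 2.59e-26) for C1M, -1.06 ± 0.08 (SE, adjusted p = 8.93e-26) for C1H and -1.40 ± 0.08 (SE, adjusted p = 3.63e-36) for C1T against C1.

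Scd2 (ENSMUSG00000025203, chr19:44293674-44306864, plus strand) measured 620.4, 616, 594 and 605 CPM in C1, 336, 350.3, 339.8 and 282 CPM in C1M, and 307, 324, 279 and 278 CPM in C1H. At day 4 it measured 331, 336, 277 and 311 CPM in C1T, 220.4, 200.1, 190.0 and 247 CPM in C1MV, and 216, 227, 212 and 258 CPM in C1HV, with 371, 406, 390.1 and 391 CPM in C1MDT and 364, 342, 359.7 and 363 CPM in C1HDT. Again C1 stood above all other libraries and the groups without inducers were lowest. The log2 fold change was -0.90 ± 0.07 (SE, adjusted p = 1e-21) for C1M, -1.04 ± 0.07 (SE, adjusted p = 1.94e-26) for C1H and -0.96 ± 0.07 (SE, adjusted p = 1.86e-24) for C1T against C1. With inducers at day 4 Scd1 rose by 0.94 ± 0.08 and 0.90 ± 0.09 and Scd2 by 0.87 ± 0.08 and 0.65 ± 0.08.

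Elovl6 (ENSMUSG00000041220, chr3:129532355-129638495, plus strand), the gene of a fatty acid elongase, separated C1T from the other day 4 groups. It measured 430.4, 369, 333 and 356 CPM in C1, 245, 204, 235 and 238 CPM in C1M, and 253, 255, 227 and 236 CPM in C1H. The day 4 values were 313, 276, 277 and 303 CPM in C1T, 98.7, 88.8, 86.5 and 86.3 CPM in C1MV, and 81.6, 99.5, 81.7 and 111 CPM in C1HV, with 98.0, 121, 117 and 116 CPM in C1MDT and 121, 109, 121 and 103 CPM in C1HDT. All libraries of the 4 groups with an induction history at day 4 were below all C1T libraries. The log2 fold change against C1T was -1.66 ± 0.09 (SE, adjusted p = 1.22e-36) in C1HV and -1.69 ± 0.09 (SE, adjusted p = 1.37e-38) in C1MV. With inducers it was -1.36 ± 0.09 (SE, adjusted p = 2.78e-31) in C1HDT and -1.36 ± 0.09 (SE, adjusted p = 3.39e-31) in C1MDT. Against the groups without inducers it was higher by 0.34 ± 0.09 and 0.29 ± 0.10, with overlapping libraries in both fractions. The call in the high fraction was lost with library size scaling, in a fit of only those groups, and without replicate 1 or 3 of C1HV or of C1HDT.

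Fads1 and Fads2 encode desaturases of polyunsaturated fatty acids. Fads1 (ENSMUSG00000010663, chr19:10182888-10196877, plus strand) measured 62.1, 78.6, 61.7 and 69.4 CPM in C1, 66.6, 73.7, 65.5 and 71.4 CPM in C1M, and 68.1, 70.4, 71.8 and 63.0 CPM in C1H. On day 4 the levels were 74.3, 81.6, 79.1 and 75.0 CPM in C1T, 73.3, 93.7, 96.6 and 52.8 CPM in C1MV, and 92.4, 69.4, 74.8 and 76.7 CPM in C1HV, with 138, 137, 127 and 122 CPM in C1MDT and 138, 145, 132 and 120.5 CPM in C1HDT. All 8 libraries with inducers were above the 24 others. It rose by 0.68 ± 0.10 (SE, adjusted p = 3.13e-08) and 0.77 ± 0.10 (SE, adjusted p = 1.62e-09) with inducers and by 0.75 ± 0.10 (SE, adjusted p = 5.29e-10) and 0.78 ± 0.10 (SE, adjusted p = 9.5e-11) against C1T.

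Fads2 (ENSMUSG00000024665, chr19:10062765-10101746, minus strand) measured 14.3, 5.66, 12.5 and 10.1 CPM in C1, 7.21, 7.09, 4.89 and 7.01 CPM in C1M, and 8.51, 11.2, 6.59 and 4.62 CPM in C1H. By day 4 its level was 5.28, 6.24, 7.15 and 15.7 CPM in C1T, 6.45, 5.25, 5.45 and 4.99 CPM in C1MV, and 6.20, 6.25, 7.31 and 5.20 CPM in C1HV, with 13.3, 8.84, 9.21 and 13.4 CPM in C1MDT and 9.86, 7.16, 8.79 and 12.9 CPM in C1HDT. The few reads left wide errors, at 0.97 ± 0.29 (SE, adjusted p = 0.013) and 0.63 ± 0.30 (SE, adjusted p = 0.15) with inducers, and the call in the middle fraction was lost without C1MDT replicate 4. Of the genes whose enzymes supply acetyl-CoA or malonyl-CoA, the list of 32 holds Acly and Acaca. Acly, the ATP citrate lyase gene, rose by 0.68 ± 0.08 and 0.78 ± 0.08 with inducers, and Acaca, an acetyl-CoA carboxylase gene, by 1.01 ± 0.12 and 0.90 ± 0.13.

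**Figure D3:**
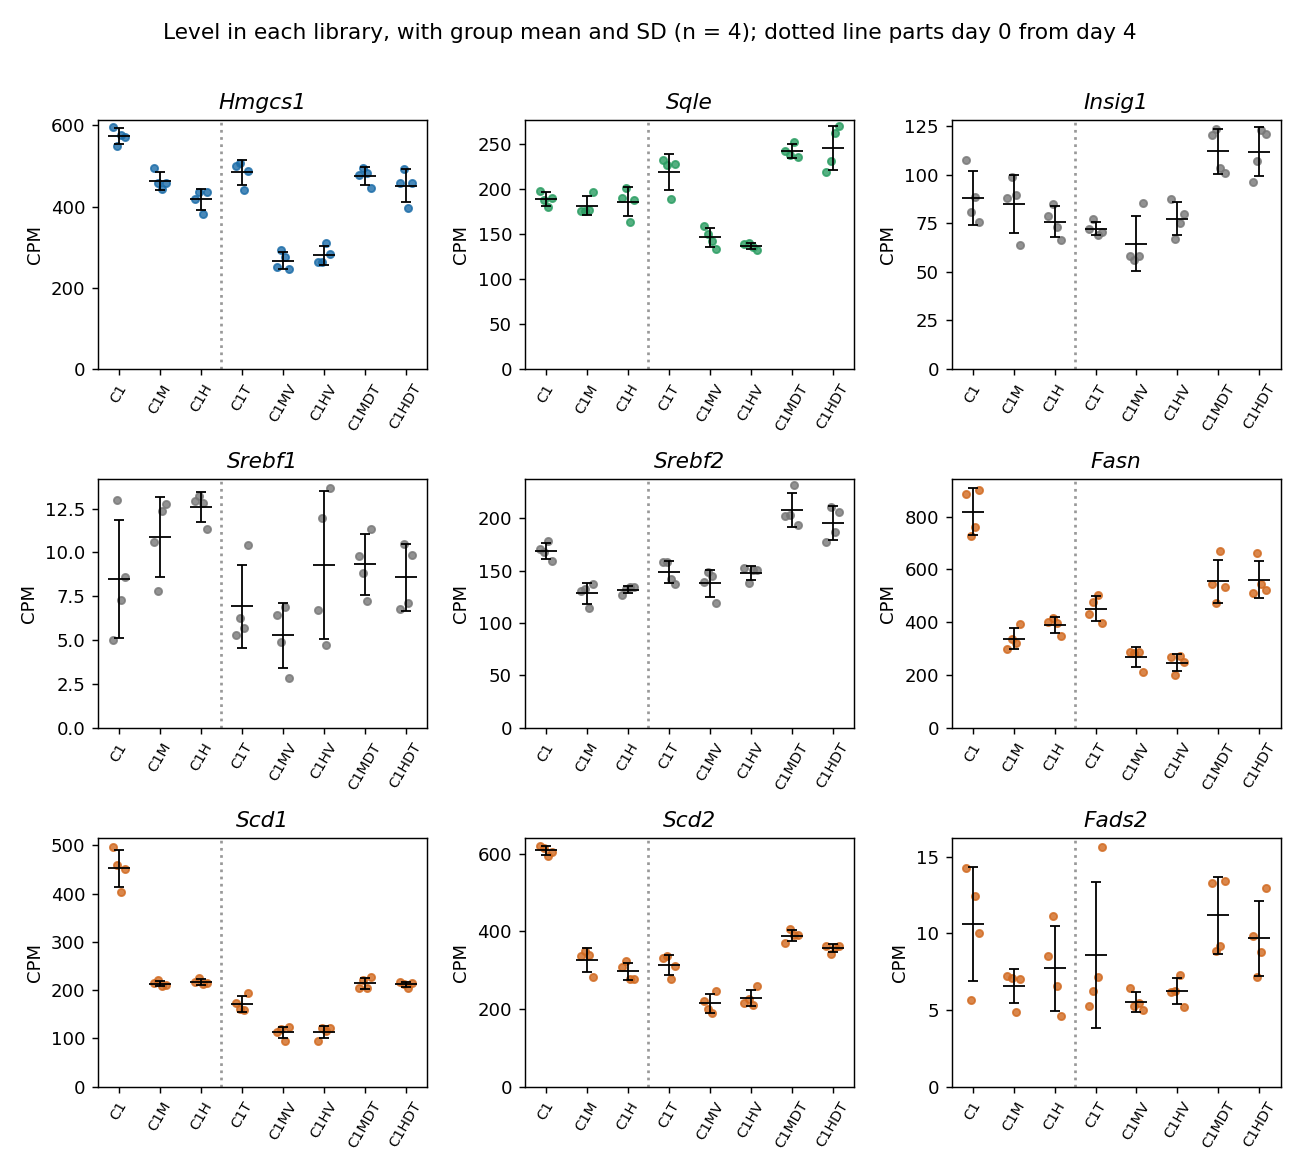
CPM of 9 of the genes in each library (points, coloured by role), with the group mean and SD (n = 4) in black and a dotted line between day 0 and day 4. C1 is highest for Fasn, Scd1 and Scd2, C1MV and C1HV are lowest for Hmgcs1, Sqle and Fasn, and Srebf1 and Fads2 reach no more than 15.7 CPM, with wide spreads.

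At day 0 the sorted cells were compared with C1 to see what the induced fusion protein goes with in pluripotent culture. In C1M 16 of the 32 genes were lower than in C1, where 12% of all genes tested were called lower, and 1 was higher, where 14.3% were. In C1H 16 were lower, against 12.1% of all genes, and 1 was higher, against 13.8%. These comparisons share the C1 libraries. The lower genes were 6 and 7 of 7 mevalonate genes, 2 and 2 of 11 squalene to cholesterol genes, 1 and 1 of 6 regulators and 7 and 6 of 8 fatty acid genes. The median change was -0.33 and -0.41 (log2), and -0.76 and -0.72 among the fatty acid genes. Over all genes tested the median was 0.06 and 0.04. The calls of Fads2 in C1M and Idi1 in C1H were each lost in 11 alternatives, DESeq2 among them.

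Of the mevalonate genes, Acat2 differed from C1 by -0.51 ± 0.09 and -0.78 ± 0.09 in C1M and C1H, Pmvk by -0.42 ± 0.08 and -0.59 ± 0.08, Mvk by -0.47 ± 0.11 and -0.48 ± 0.11 and Hmgcs1 by -0.31 ± 0.07 and -0.46 ± 0.07. Sqle, at -0.06 ± 0.08 and -0.03 ± 0.08, and Insig1, at -0.06 ± 0.11 and -0.22 ± 0.11, did not pass. Srebf2 differed by -0.39 ± 0.09 and -0.36 ± 0.09. The liver list was lower as well, with a median of -0.57 and -0.53, and with its level as a covariate 15 and 16 of the 32 genes were called, against 17 and 17 without it. Between C1H and C1M edgeR called 0 of the 32 genes, DESeq2 called 1 (Msmo1), and 6 had an unadjusted p under 0.05. Over all genes tested 1.77% were called there.

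From day 0 to day 4 without dox, 9 of the 32 genes were higher in C1T than in C1, where 24.4% of all genes tested were called higher, and 8 were lower, where 24.9% were. Both counts lay near these shares, so the list was called about as often as genes in general. The calls by role that follow are a description only. The higher genes included 6 of the 11 squalene to cholesterol genes, Sqle, Lss, Cyp51, Nsdhl, Sc5d and Dhcr7, and the lower ones 4 of the 8 fatty acid genes, Fasn, Elovl6, Scd1 and Scd2. Of the mevalonate genes 1 was higher (Mvk) and 2 lower (Hmgcs1 and Pmvk). Ebp and Insig1 were lower, and Stard4 was higher. A difference between the routes was not tested. Acly rose, by 0.30 ± 0.08. The calls of Sqle, Mvk, Sc5d and Insig1 in this comparison were lost when single libraries were left out. Sqle lost its call without C1 replicate 3 or C1T replicate 1, 2 or 4 and with no low-count filter, Mvk without C1 replicate 1 or C1T replicate 1 or 2, Sc5d without C1 replicate 2 or C1T replicate 4, and Insig1 without C1 replicate 1 or 3 or C1T replicate 1, 3 or 4 and with the liver covariate. The liver list had a median change of 0.24.

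The change from day 0 to day 4 was also taken within the sorted fractions. Without inducers 15 of the 32 genes were lower in C1MV than in C1M, where 23.8% of all genes were called lower, and 2 higher, where 22% were, while 15 did not pass. In C1HV 13 were lower than in C1H, against 25.1%, and 3 higher, against 22%, while 16 did not pass. With inducers 21 were higher in C1MDT than in C1M, against 24.5%, and 3 lower, against 27.9%. In C1HDT 22 were higher than in C1H, against 26.3%, and 4 lower, against 29.4%. The 3 lower genes of C1MDT were Elovl6, Hsd17b7 and Ebp, and C1HDT added Srebf1, whose call was lost without any 1 of the C1H libraries, without C1HDT replicate 1 or 3, and with DESeq2. Cyp51 rose in all 4 of these comparisons, by 0.86 ± 0.08 in C1HV and 0.72 ± 0.08 in C1MV, and by 1.66 ± 0.08 in C1HDT and 1.55 ± 0.08 in C1MDT. The liver list rose without inducers (median 0.68 and 0.60) and had medians closer to 0 with them (0.12 and 0.17). With its level as a covariate 12 genes were called in C1MV against C1M instead of 17.

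The interaction terms compare these changes with the change from C1 to C1T. For C1M to C1MV, 3 of the 32 genes had a change above and 12 a change below that of C1T, where 22.5% of all genes tested passed in either direction. For C1H to C1HDT these counts were 18 and 1, where 25.2% passed in either direction. The shares take both directions together, so they are no measure for the count in a single direction.

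Against C1T, the day 4 cells that never had dox, the groups went in both directions. In C1MV 23 of the 32 genes were lower, where 14.9% of all genes tested were called lower, and 1, Ebp, was higher, where 15.4% were. In C1HV 23 were lower, against 14.3%, and 1, again Ebp, was higher, against 13.7%. With inducers kept, 16 were higher and 3 lower in C1MDT, against 16.9% and 16.5% of all genes. In C1HDT 16 were higher and 3 lower, against 17.4% and 16.1%. These 4 comparisons share the C1T libraries. The median change was -0.56, -0.63, 0.32 and 0.28 in C1MV, C1HV, C1MDT and C1HDT, against 0.01, 0.01, -0.01 and 0.00 over all genes tested.

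Without inducers the lower genes were 6 and 6 of 7 mevalonate genes in C1MV and C1HV, 10 and 10 of 11 squalene to cholesterol genes, 1 and 1 of 6 regulators and 6 and 6 of 8 fatty acid genes. Mvk differed from C1T by -1.14 ± 0.12 and -1.18 ± 0.12 on the log2 scale, Hsd17b7 by -1.27 ± 0.16 and -1.07 ± 0.17 and Nsdhl by -0.93 ± 0.15 and -1.09 ± 0.16. With inducers the higher genes included Mvd (0.74 ± 0.13 and 0.69 ± 0.13), Stard4 (0.48 ± 0.11 and 0.49 ± 0.11) and Dhcr7 (0.43 ± 0.12 and 0.43 ± 0.12), and the lower genes were Elovl6, Lss and Hsd17b7 in both. For C1HDT against C1T the call of Scd2 was lost in 11 alternatives and that of Fasn in 7, both with other size factors. The liver list had a median of -0.20 and -0.24 in C1MV and C1HV and of -0.73 and -0.65 in C1MDT and C1HDT. With its level as a covariate 24 and 24 genes were called without inducers, and 14 and 14 were called with them (losing among others Dhcr7 in C1MDT and Hsd17b7 in both) in place of 19 and 19. Endoderm markers moved with these groups. Of the 9 endoderm markers tested (of 10 listed), 6 and 6 were higher than in C1T in C1MV and C1HV, where 15.4% and 13.7% of all genes tested were. In C1MDT and C1HDT 6 and 6 were higher, against 16.9% and 17.4% of all genes, and 3 and 3 were lower, against 16.5% and 16.1%. Dab2, which encodes an endocytic adaptor of extraembryonic endoderm, measured 6.52 to 14.8 CPM in C1T, 234 to 264 in C1HV and 156 to 273 in C1MV, against 400.3 to 507 in C1HDT and 414 to 522 in C1MDT. The lower ones, Apoa1, Apob and Ttr, are transcripts that liver makes too, and Apoa1 is also in the liver list. With inducers kept against withdrawn, 4 endoderm markers were higher and 2 lower in the middle fraction, where 6.64% and 5.98% of all genes tested were. In the high fraction 4 were higher and 1 lower, where 9.06% and 6.89% were. The part of these markers in the changes of the 32 genes was not tested.

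**Figure D4:**
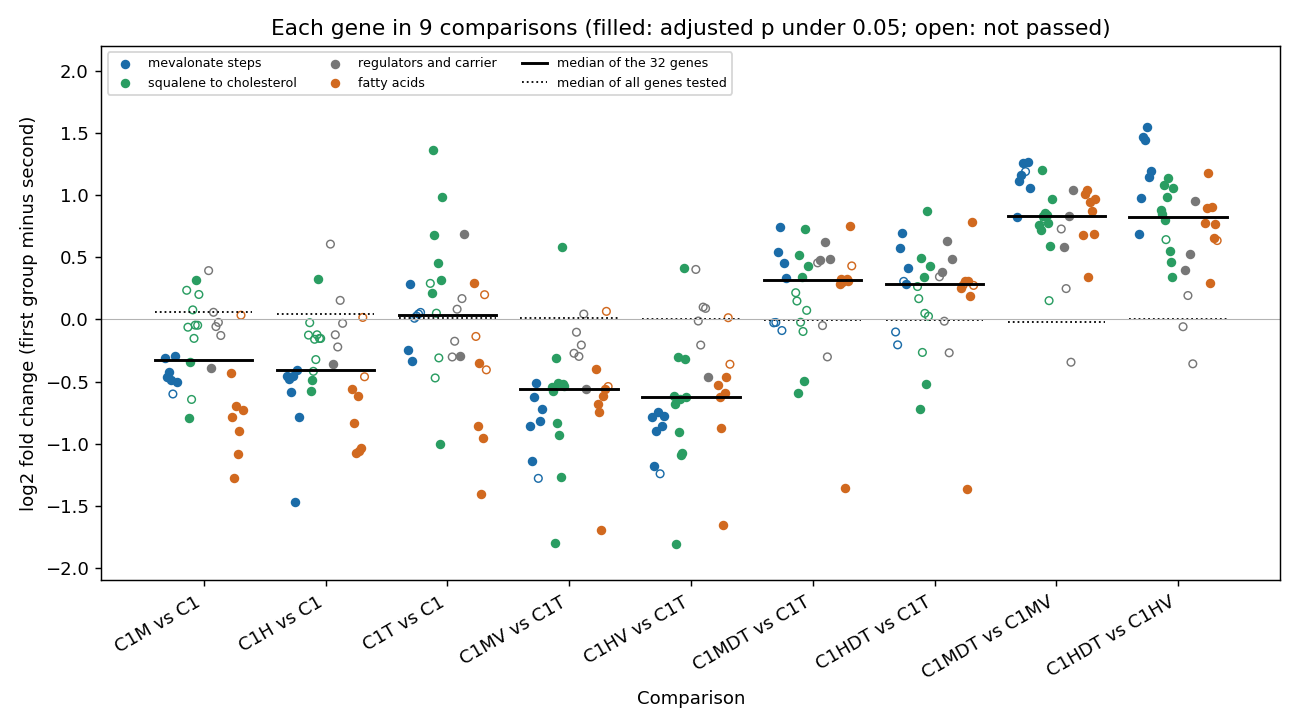
Log2 fold change of each gene (points, coloured by role, filled where the adjusted p was under 0.05) in 9 comparisons, with the median of the 32 genes as a solid bar and the median of all genes tested as a dotted bar. The solid bar lies at -0.56 and -0.63 for the groups without inducers against C1T and at 0.83 and 0.82 for inducers kept against withdrawn, while the dotted bar stays near 0.

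At day 4 the cells from the high and the middle sort gate were compared under the same treatment, which contrasts the sort gate of day 0. Ctnnb1 reads differed by 0.05 ± 0.16 (log2, SE) between C1HDT and C1MDT and by -0.47 ± 0.29 between C1HV and C1MV and did not pass, and the amount of fusion protein was not analysed here. Between C1HV and C1MV edgeR called 0 of 32 and DESeq2 0, and 3 had an unadjusted p under 0.05, with 0.00654% of all genes called. Between C1HDT and C1MDT edgeR called 0 and DESeq2 0, and 1 had an unadjusted p under 0.05, with 0% of all genes called. The differences ran from -0.28 to 0.67 (log2) without and from -0.24 to 0.40 with inducers. For Hmgcs1 the interval of 2 SE around the change of C1HDT against C1MDT was -0.21 to 0.07, and for Fasn it was -0.22 to 0.24.

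Neighbouring genes of the pathways were counted from lists written by name, in C1MDT against C1MV (middle fraction) and C1HDT against C1HV (high fraction). Among all genes tested 6.64% and 9.06% rose there and 5.98% and 6.89% fell. Of 6 other sterol synthesis genes, 4 rose and 0 fell in the middle fraction, and 4 rose and 0 fell in the high fraction. Of 17 other fatty acid genes, 5 rose and 0 fell in the middle fraction, and 8 rose and 1 fell in the high fraction. Of 13 genes of sterol uptake and efflux, 4 rose and 1 fell in the middle fraction, and 3 rose and 1 fell in the high fraction. Of 7 genes that process SREBP or control its breakdown, 0 rose and 3 fell in the middle fraction, and 0 rose and 1 fell in the high fraction. Of 10 fatty acid oxidation genes, 0 rose and 2 fell in the middle fraction, and 0 rose and 2 fell in the high fraction. Their median log2 fold changes were 0.38 and 0.46 for the other sterol genes, 0.17 and 0.31 for the other fatty acid genes, 0.07 and -0.03 for uptake and efflux, -0.31 and 0.06 for SREBP processing, and -0.12 and -0.09 for oxidation. The naive markers fell with inducers, 8 and 9 of 10, and 5 and 4 of 6 primed markers rose. Of 7 neural markers, 2 rose and 1 fell in the middle fraction, and 2 rose and 0 fell in the high fraction. The 6 fibroblast markers summed to between 7.26 and 21.1 CPM in the day 4 groups. The part of these markers in the changes of the sterol and fatty acid genes was not tested.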

How the data were processed

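Gene expression was measured by sequencing the 3′ ends of transcripts (QuantSeq) in 32 libraries of 8 groups. After trimming with bbduk and STAR alignment to mm10, the authors used htseq-count for uniquely aligned reads in Ensembl genes and deposited the raw counts, 1 file per library. The strand setting of the counting was not given in the sources used here. The 5 closing lines that name no gene were left out, and of the uniquely aligned reads between 10.1% and 23.1% lay on no gene.

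Totals on genes ran from 1366951 to 3648787, with a median of 2402467. Testing was limited to genes that reached 1 CPM in 4 or more libraries (15280 of 31053). These were scaled by TMM and entered 1 fit of all groups with the quasi-likelihood test of edgeR 4.0.16 (R 4.3.3), with Benjamini-Hochberg adjustment and a threshold of 0.05. The SE is the log2 fold change divided by the root of F. DESeq2 1.42.0, other scalings and filters, a replicate block, fits of only the groups compared and the removal of each library were alternatives, and a covariate for the liver list was added after the data were seen. Same-numbered libraries did not deviate together (mean r of -0.0016 over 112 pairs, against 0.00054 over 336 pairs with different numbers), so no pairing by replicate number was seen. Counting error in genes with few reads could hide a small shared effect in this check. The paper took replicates as batches in a correction that it describes as negligible. The members and lists were chosen with earlier results of these data known. Values in every library are given for 9 members fixed by name and for those with the smallest p in each direction, with 2 taken per comparison. Promoter letters are from RefSeq on GRCm38.p6. The fit was tested on simulated data.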

Additional observations from a re-analysis of the deposited data

Results flagged for a closer look

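In 20 of the 256 sets of 4 libraries (32 genes in 8 groups), 1 library stood apart from the other 3 by more of the range than Dixon's test allows at 95%. Chance alone flags about 1 in 20 sets. A single high library was found for Mvk in C1 replicate 4 (83.3 CPM), Mvd in C1H replicate 1 (359 CPM), Sqle in C1M replicate 4 (197 CPM), Cyp51 in C1MDT replicate 2 (485 CPM), Msmo1 in C1MV replicate 4 (301 CPM), Insig1 in C1MV replicate 4 (85.6 CPM), Insig2 in C1 replicate 2 (23.2 CPM), Insig2 in C1MDT replicate 2 (25.1 CPM) and Insig2 in C1HDT replicate 4 (22.5 CPM). A single low library was found for Mvk in C1T replicate 3 (73.9 CPM), Mvd in C1MV replicate 4 (225 CPM), Mvd in C1HV replicate 2 (188 CPM), Fdps in C1H replicate 3 (146 CPM), Sqle in C1T replicate 3 (189 CPM), Cyp51 in C1 replicate 2 (169 CPM), Msmo1 in C1HDT replicate 3 (456 CPM), Srebf2 in C1HV replicate 2 (138 CPM), Scap in C1M replicate 4 (19.0 CPM), Fasn in C1MV replicate 4 (210.3 CPM) and Fads2 in C1M replicate 3 (4.89 CPM). C1MV replicate 4, the library with the fewest reads, is named 4 times here.

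The change from day 0 to day 4 differed between lines of culture for 34 pairs of gene and comparison, each by the interaction term of the edgeR fit with an adjusted p under 0.05. For the first, the change from C1M to C1MV minus the change from C1 to C1T, 22.5% of all genes tested passed in either direction. The difference of log2 fold changes was below 0 for Hmgcs1 (-0.55), Mvk (-0.67), Fdps (-0.52), Fdft1 (-0.78), Sqle (-0.51), Lss (-1.01), Msmo1 (-0.59), Nsdhl (-0.78), Hsd17b7 (-1.22), Sc5d (-0.47), Dhcr7 (-0.74) and Elovl6 (-0.999). It was above 0 for Fasn (0.53), Scd1 (0.47) and Scd2 (0.33). These 3 fatty acid genes fell more from C1 to C1T than from C1M to C1MV.

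For the second, the change from C1H to C1HDT minus the change from C1 to C1T, 25.2% of all genes tested passed in either direction. The difference was above 0 for Hmgcs1 (0.36), Pmvk (1.16), Mvd (1.15), Fdps (0.69), Acat2 (1.20), Cyp51 (0.98), Msmo1 (0.50), Ebp (0.55), Dhcr7 (0.59), Srebf2 (0.74), Insig1 (0.85), Stard4 (0.52), Acly (0.81), Acaca (1.11), Fasn (1.38), Scd1 (1.36), Scd2 (1.22) and Fads1 (0.77). Among the 32 genes 1 passed below 0, Elovl6 (-0.75). The 2 interactions share the C1 and C1T libraries. The Sc5d call in the first was lost without any 1 of 8 libraries (C1 replicates 1 and 2, C1M replicates 3 and 4, C1T replicate 4 and C1MV replicates 1, 2 and 3), that of Scd2 in the first without C1T replicate 3, and the Dhcr7 call in the second without C1 replicate 2 or 4 or C1H replicate 2. Each term is the difference from C1T at day 4 minus the difference from C1 at day 0. A lower level at day 0 after induction therefore raises it. For Hmgcs1 in the second, C1HDT against C1T did not pass, while C1H was lower than C1. A reason for these differences was not tested.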

How the results depend on the processing

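Of the counts of genes called among the 32, 1 changed its side under an alternative. Between C1H and C1M, 0 genes were called, against 1 with DESeq2, 3 in a fit of only those groups (Msmo1, Acat2 and Fasn), 1 with the liver covariate, and 0 to 1 when 1 library was left out, with 1 without C1M replicate 4 and 1 without C1H replicate 4. No called gene reversed its direction in any alternative run here, while genes that did not pass could change sign near 0, as Sqle did for C1H against C1 with library size alone (-0.03 to 0.05). For called genes the call was kept in 5022 cases and lost in 158, and for genes not called a call appeared in 93 cases of gene and alternative. The calls most often lost were those of Idi1 for C1H against C1 and for C1HDT against C1HV, Fads2 for C1M against C1, and Scd2 for C1HDT against C1T, each lost in 11 alternatives. The count higher with inducers in both fractions was 23 to 25 over the alternatives other than leaving out a library and 22 to 25 when each library was left out. With the replicate block 26 and 26 genes were called with inducers kept, against 26 and 27 without the block, and 16 and 16 in C1M and C1H against C1, where it was 17 and 17. No pairing of libraries by number was seen. Scaling by library size alone moved the split of all genes called higher and lower from 2185 and 1835 to 2635 and 1449 for C1M against C1, from 2114 and 1847 to 2730 and 1381 for C1H against C1, from 2098 and 2179 to 2575 and 1762 for C1HV against C1T, and from 1384 and 1053 to 1098 and 1331 for C1HDT against C1HV. The cause of these changes was not tested. Depth limits the precision for Idi1, Tm7sf2, Fads2 and Srebf1, which had 182, 622, 631 and 681 reads over all libraries.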
